A study of Mus musculus with 6 samples.

Results

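The genes described here encode interferon-inducible nuclear and tripartite-motif (TRIM) proteins: Ifi203, Ifi204, Ifi205 and Aim2 of the PYHIN family, Sp100 and Sp110, the plant homeodomain finger gene Phf11d, and Trim30a and Trim30d. They were taken by symbol, 9 genes in all, beside 22180 genes that have a probe set of their own in the table, and they were chosen knowing their log2 ratios of sh Spp1 over sh Ctrl in each cell line. Those ratios are therefore a description without a test. RNA was hybridised to 6 single-colour whole-transcript arrays from the mouse cancer cell lines LLC (Lewis lung carcinoma), AE17 (malignant mesothelioma) and MC38 (colon adenocarcinoma). In each line 1 array is labelled sh Spp1, with the genotype entry Spp1 depletion, and 1 is labelled sh Ctrl, with the genotype entry wild type. Spp1 encodes the secreted glycoprotein osteopontin, and sh denotes a short hairpin RNA. The labels do not state whether the controls carried a control hairpin, or whether a line is a clone or a pool. All cultures grew in serum-containing DMEM with no further treatment. The level of Spp1 was not analysed here, because 0 named probe sets carry its symbol, so the directions rest on the labels.

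Type I interferon acts through the receptor chains Ifnar1 and Ifnar2 and the kinases Jak1 and Tyk2 on transcription factors that include Stat2 and Irf9 and bind interferon-stimulated response elements near the starts of its target genes. PYHIN proteins join a pyrin domain to a DNA-binding HIN domain: Aim2 recruits the adaptor Pycard and caspase-1 to cytosolic DNA, while its Ifi relatives act mainly in the nucleus. Sp100 is a resident of PML nuclear bodies. Sp110, a related chromatin reader, has been described as limiting mycobacterial growth in mouse macrophages. Trim30a is a mouse TRIM protein that restrains Toll-like receptor signalling. Human PHF11 is described as a transcriptional co-activator in T cells. In tumour cells this gene programme is known as a readout of interferon signalling.

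Member promoters were read from RefSeq (GRCm38.p6), where 8 of the 9 genes have an entry, and Ifi204 is named only. Shown are the 150 bases upstream of the most upstream listed start for the genes lower in every line (Sp100, Trim30a, Trim30d), those higher in AE17 and lower in MC38 (Ifi205, Phf11d), and Aim2, which was lower in AE17 alone. Capitals mark matches, on either strand, to the response-element core (GAAA, 2 bases of any kind, GAAA) or to its variant with a spacer of 1 base. The lines are, in order, chr1:85649838-85649987 on the plus strand, chr7:104465194-104465343 on the minus strand, chr7:104507850-104507999 on the minus strand, chr1:174031756-174031905 on the minus strand, chr14:59365491-59365640 on the minus strand and chr1:173420454-173420603 on the plus strand.
Sp100: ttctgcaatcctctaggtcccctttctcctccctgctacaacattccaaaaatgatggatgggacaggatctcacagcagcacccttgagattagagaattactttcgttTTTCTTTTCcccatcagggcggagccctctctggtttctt
Trim30a: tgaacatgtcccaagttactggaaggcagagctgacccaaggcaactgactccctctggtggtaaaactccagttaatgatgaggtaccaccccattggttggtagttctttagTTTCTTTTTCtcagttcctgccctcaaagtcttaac
Trim30d: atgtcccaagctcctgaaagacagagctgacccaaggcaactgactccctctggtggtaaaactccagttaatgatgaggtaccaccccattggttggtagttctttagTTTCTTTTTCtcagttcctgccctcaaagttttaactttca
Ifi205: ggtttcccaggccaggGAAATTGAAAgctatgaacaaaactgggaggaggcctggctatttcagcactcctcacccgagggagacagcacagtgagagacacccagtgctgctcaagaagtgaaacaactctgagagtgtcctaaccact
Phf11d: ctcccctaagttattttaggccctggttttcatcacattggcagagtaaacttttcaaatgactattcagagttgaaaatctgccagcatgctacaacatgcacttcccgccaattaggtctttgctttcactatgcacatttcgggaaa
Aim2: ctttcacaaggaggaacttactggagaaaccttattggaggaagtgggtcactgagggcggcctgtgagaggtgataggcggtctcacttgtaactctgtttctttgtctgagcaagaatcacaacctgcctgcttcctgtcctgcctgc

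The Trim30a and Trim30d stretches were 90.3% identical in a global alignment, and each holds the same core match, which ends 27 bases before the start in Trim30a and 32 bases before it in Trim30d. Every other pair of these 6 stretches lay between 46.1% and 53.9%. Over the whole 300-base entries, from 250 bases before to 50 after a start, the core was found for 4 of 8 members (Ifi203, Ifi205, Trim30a and Trim30d) and in 3.44% of all 32851 entries. The variant was found for 5 (Sp100, Sp110, Phf11d, Trim30a and Trim30d) and in 3.17% of entries. At the other listed start of Trim30a the core match lies downstream, at bases 3 to 12. The variant matches in Phf11d and Trim30d span the start, so they lie only in part in the printed bases and are not in capitals. Those of Sp110 and Trim30a lie downstream of the start, as does another core match in Ifi205, at bases 24 to 33. The 2 motifs did not overlap where Trim30a and Trim30d hold both. At least 1 of them was present for 7 of 8 members, in 9 of their 12 entries, against 7.27% of all 27025 genes and 6.27% of all entries. The members were taken as interferon-inducible genes, so these shares describe the list and are not a result of the arrays. The interferon-gamma element TTCNNNGAA was found in 0 of the 12 entries and in 8.3% of all. A match is a string of letters and not a measured binding site, and Aim2 had no match to any of the 3 motifs in this window.

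**Figure D1:**
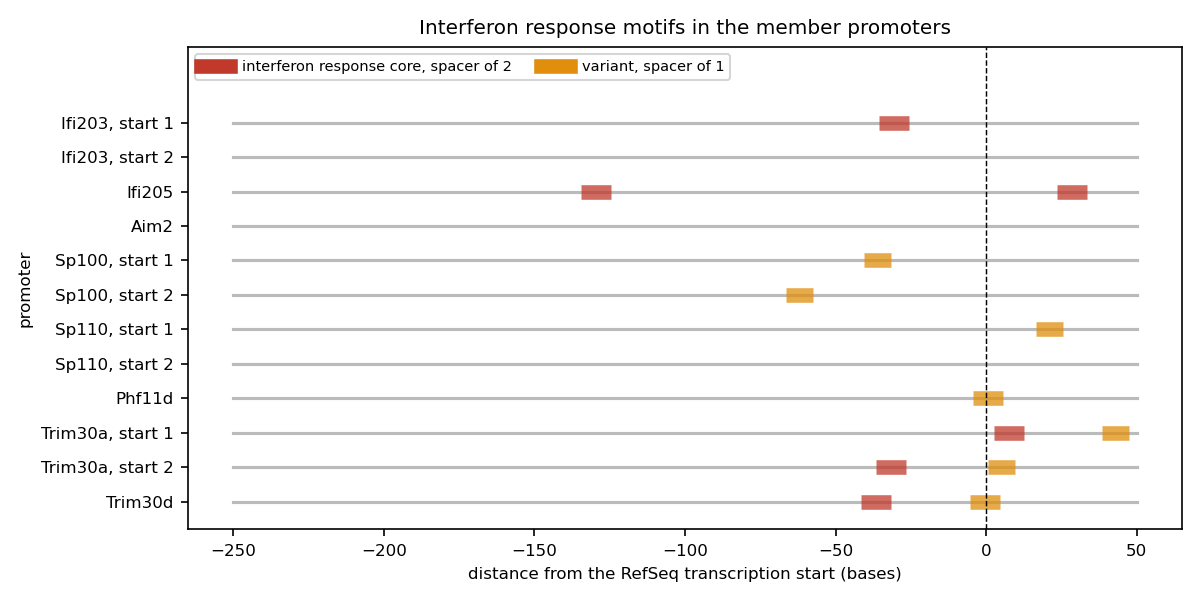
Positions of the 2 response-element motifs in the 12 RefSeq promoter entries of the members, as distance in bases from the transcription start; grey lines are the entries and bars the matches. Of the 12 entries 9 hold a match, and the Aim2 entry holds none.

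The arrays differed before normalization, with median intensities of 26.6 to 43.7 on the sh Spp1 arrays and 36.3 to 64.2 on the sh Ctrl arrays, and values are quantile-normalised log2 intensities unless stated. Genes at a mean of at least 4.49, the 30th percentile of all probe sets and called the brightness floor here, were tested; levels under it are set largely by background. The AE17 arrays stood apart: they correlated at r = 0.939 with each other across probe sets, against 0.979 in LLC and 0.982 in MC38, and each correlated more closely with the arrays of the other lines. Defining markers did not all follow the labelled tissues. Mesothelin (Msln) was at 5.34 on the sh Spp1 array and 5.13 on the sh Ctrl array of AE17, but at 9.96 and 9.87 in MC38. The intestinal marker Epcam was under the floor on both MC38 arrays, and Vil1 at 4.71 and 4.66. In LLC the lung marker Nkx2-1 was at 4.96 and 5.06. Others were brighter, such as Pdpn at 9.75 and 6.99 in AE17 and Krt8 at 7.14 and 6.69 in MC38. At or above the floor, sh Spp1 array first, were 9 and 8 of 10 mesothelial markers in AE17, with medians of 5.55 and 5.45. In MC38 9 and 7 of 10 intestinal markers were, with medians of 4.96 and 4.91. In LLC 8 and 6 of 10 lung markers were, with medians of 4.87 and 4.63. Of 12 macrophage and leukocyte markers 8 to 9 were at or above the floor on sh Spp1 arrays and 10 on sh Ctrl arrays, with summed linear intensities of 494 to 875 and 457 to 719, and the pan-leukocyte gene Ptprc was under it on all 6 arrays. An array of a culture cannot tell fewer expressing cells from less RNA per cell.

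The 9 genes are annotated on 17 probe sets, 13 with a single symbol and 4 shared with other genes. Ifi203 has only a shared probe set, and Sp100 and Sp110 have several of their own. PYHIN, Sp100-family and Trim30 genes have close paralogues, so cross-hybridisation between them cannot be told apart from their own signal. All 8 members with their own probe set passed the mean brightness filter, and the brightest probe set stands for the gene below. A ratio was counted within a line where at least 1 of its 2 arrays was at or above the floor, which left 6 members in LLC and 8 in each of AE17 and MC38.

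In MC38 the members other than Aim2 were lower with sh Spp1. There 7 of 8 members were lower by at least 1 log2 unit, a 2-fold difference, where 1.7% of the 17014 genes compared were, and 0 were higher by that amount, against 0.882%. In AE17 the members split, 2 lower (Aim2 and Trim30d) against 8.71% of 17678 genes and 2 higher (Ifi205 and Phf11d) against 9.9%. In LLC no member was past 1 log2 unit, where 1.81% of 17054 genes were lower and 1.75% higher. The members' median ratios, over those compared, were -0.16 (LLC), -0.45 (AE17) and -2.77 (MC38), beside 0.03, -0.04 and 0.02 for all genes. Since the members were picked on these ratios, nothing is read from the counts.

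**Figure D2:**
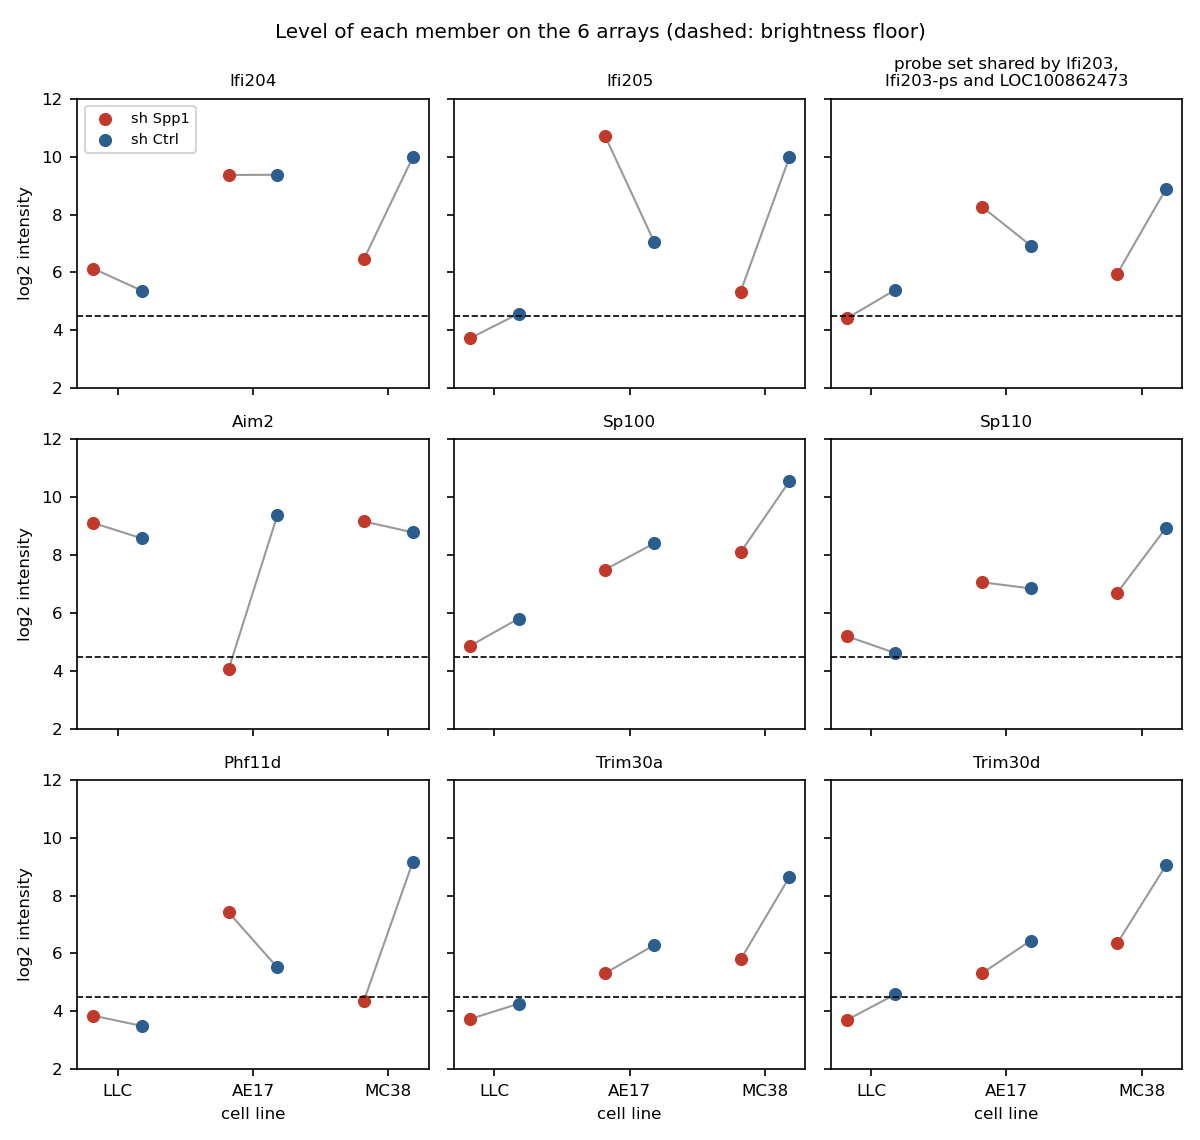
Log2 intensity of each member on the 6 arrays, with the sh Spp1 array (red) left of the sh Ctrl array (blue) of each line, joined by a line, 1 array per point; dashed is the brightness floor at 4.49. Sp100, Trim30a and Trim30d slope the same way in all 3 lines, Ifi205 and Phf11d slope in opposite ways in AE17 and MC38, and Aim2 is under the floor on the AE17 sh Spp1 array alone.

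Sp100, the nuclear body protein, was lower with sh Spp1 in every line. Its log2 intensities were 4.86, 7.50 and 8.10 on the sh Spp1 arrays of LLC, AE17 and MC38, against 5.80, 8.40 and 10.55 on the sh Ctrl arrays. The sh Spp1 array was the lower one in each line, and the 2 groups overlapped across lines. The log2 ratios were -0.95, -0.90 and -2.45, a mean of -1.43 ± 0.88 (SD, n = 3 lines). Its LLC sh Spp1 level was only at percentile 13.3 of the tested genes, so background may enter there. The other 3 probe sets of Sp100 alone were also lower in each line, with means of -1.53 ± 0.72, -1.51 ± 1.49 and -1.42 ± 1.36. The first of these was under the floor on the LLC sh Spp1 array, at 4.34, and its LLC ratio was -0.61 with that level raised to the floor. Both of the last pair had only 2 of 6 arrays at or above the floor, and their LLC ratios of -0.14 and -0.42 are between levels under it. With levels raised to the floor their AE17 ratios were 0 and -0.13, so their AE17 directions and means rest on background levels as well. The probe set shared by Sp100 and Gm7609 had ratios of 0.16 (LLC), -0.82 (AE17) and -2.26 (MC38), so its LLC sign differed.

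Trim30a and Trim30d, neighbours on chromosome 7, had the same pattern. Trim30d was at 3.69, 5.31 and 6.36 on the sh Spp1 arrays of LLC, AE17 and MC38, against 4.59, 6.44 and 9.05 on the sh Ctrl arrays. Its ratios were -0.89, -1.13 and -2.70, a mean of -1.57 ± 0.98 (SD, n = 3 lines). Trim30a was at 3.73, 5.32 and 5.79 with sh Spp1 and at 4.26, 6.28 and 8.64 with sh Ctrl, with ratios of -0.53, -0.96 and -2.85. In LLC both Trim30a arrays and the sh Spp1 array of Trim30d were under the floor; with levels raised to the floor the LLC ratios were 0 and -0.09. Directions in LLC thus rest on background levels for both genes. In AE17 and MC38 all their levels were above the floor. The AE17 sh Spp1 levels of Trim30a and Trim30d were still low, at percentiles 22.9 and 22.7 of the tested genes, so background may enter there too. Over the 6 arrays the 2 genes correlated at Pearson r = 0.994, and each correlated with Sp100 at 0.98, points that share 3 lines. Signal shared between the probe sets of Trim30a and Trim30d was not tested, so the 2 genes are not independent cases.

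Sp100, Trim30a and Trim30d were the 3 members, of 8, that were lower in all 3 lines, a pattern held by 15.5% of the 16797 genes tested. The count was again 3 in the deposited values and after median centring of the arrays.

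Ifi205, a nuclear PYHIN protein, had the widest opposition between lines among the members. It was at 3.72, 10.70 and 5.34 on the sh Spp1 arrays of LLC, AE17 and MC38, against 4.57, 7.07 and 9.98 on the sh Ctrl arrays. In AE17 it was therefore 12.4-fold higher with sh Spp1, a log2 ratio of 3.64, and in MC38 24.9-fold lower, at -4.64. The LLC ratio was -0.85, or -0.08 with the sh Spp1 level raised to the floor. It was the 1 member of 8 that was higher in AE17 and lower in both other lines, a pattern of 9.63% of tested genes, and in the deposited values Phf11d and Sp110 had it too.

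Phf11d had the same signs as Ifi205 in AE17 and MC38. Its levels were 3.85, 7.42 and 4.37 with sh Spp1 and 3.49, 5.51 and 9.16 with sh Ctrl. The log2 ratios were 1.91 in AE17 and -4.79 in MC38, or -4.67 with the MC38 sh Spp1 level raised to the floor. Both LLC arrays were under the floor, and the LLC ratio of 0.36 turned to -0.40 in the deposited values. A log2 ratio of at least 1 in AE17 together with one of at most -1 in MC38 was found for these 2 members and for 0.572% of tested genes.

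The probe set shared by Ifi203, its pseudogene Ifi203-ps and LOC100862473 cannot be assigned to 1 of them. It was at 4.40, 8.27 and 5.96 on the sh Spp1 arrays, against 5.40, 6.93 and 8.89 on the sh Ctrl arrays of LLC, AE17 and MC38. Its AE17 ratio of 1.34 and MC38 ratio of -2.93 had the signs seen for Ifi205.

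Ifi204, a PYHIN protein that also binds cytosolic DNA, was far lower with sh Spp1 in MC38 and level in AE17. It was at 6.13, 9.37 and 6.46 with sh Spp1 and at 5.36, 9.38 and 9.98 with sh Ctrl. The MC38 ratio was -3.52, an 11.4-fold difference, and the AE17 ratio -0.01, with 0.15 in the deposited values and 0.60 after centring. The LLC ratio of 0.77 depended on the scaling: the deposited intensities were 64.6 with sh Spp1 and 64.0 with sh Ctrl, a log2 ratio of 0.01. A brighter probe set shared by Ifi211 and Ifi204 had -0.34 in LLC, 0.41 in AE17 and -1.86 in MC38.

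Sp110 was lower in MC38 alone among ratios past 1 log2 unit. It was at 5.20, 7.06 and 6.70 with sh Spp1 and at 4.61, 6.85 and 8.94 with sh Ctrl, which gives -2.24 in MC38, 0.21 in AE17 and 0.59 in LLC. The LLC direction turned in the deposited values, to -0.24. A second probe set of Sp110 had 0.32, -0.32 and -1.35 in LLC, AE17 and MC38, so the AE17 sign differed between probe sets. The third was at or above the floor on 1 array.

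Aim2, the cytosolic DNA sensor of the family, went a way of its own. It was at 9.11, 4.05 and 9.16 on the sh Spp1 arrays of LLC, AE17 and MC38, against 8.57, 9.38 and 8.79 on the sh Ctrl arrays. The 5 arrays other than AE17 sh Spp1 lay within a log2 unit of each other, and that one was under the floor. Its AE17 ratio was -5.33, or -4.88 with the low level raised to the floor, a 29.5-fold difference. The deposited intensities there were 10.3 with sh Spp1 and 477.5 with sh Ctrl. In LLC and MC38 the ratios were 0.54 and 0.38, above 0 under each of the 3 scalings. An AE17 ratio of at most -1 with both other lines above 0 was found for 1.91% of tested genes.

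**Figure D3:**
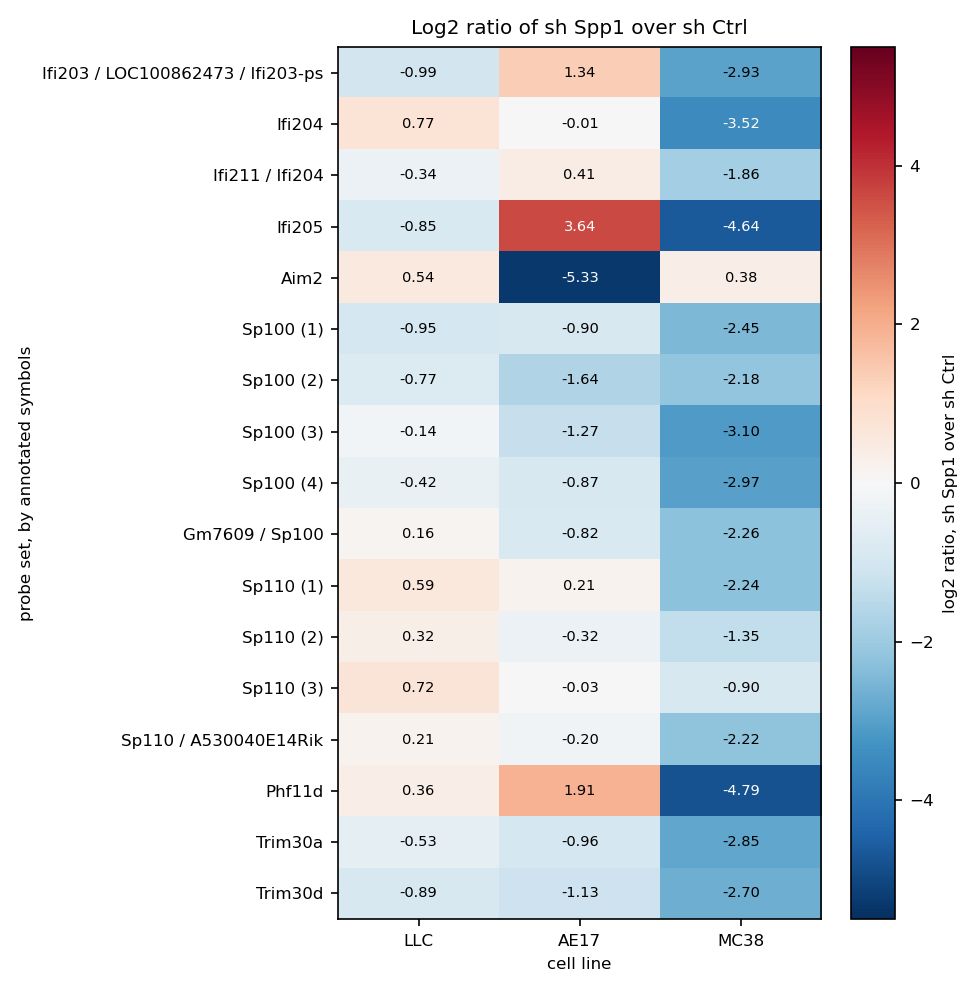
Log2 ratio of sh Spp1 over sh Ctrl for the 17 probe sets annotated to the members (rows, by symbol, numbered from the brightest where a gene has several) in the 3 lines (columns), 1 array against 1 array; red is higher and blue lower with sh Spp1. In the MC38 column 16 of 17 are below 0, in AE17 12 and in LLC 9. Sp100 and Sp110 fill several rows, so the rows are not separate cases. By gene, 7 of 8 members compared were below 0 in MC38, 5 of 8 in AE17 and 3 of 6 in LLC. The median ratios of all genes compared were 0.02, -0.04 and 0.03, and nothing is read from these counts.

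Aim2 works with Pycard and the inflammatory caspases, and their genes were set beside it. Casp1, the protease of the inflammasome, was at 4.38, 3.80 and 8.34 with sh Spp1 and at 5.64, 7.26 and 8.96 with sh Ctrl in LLC, AE17 and MC38. It was thus lower in each line, with -3.46 in AE17, where its sh Spp1 level like that of Aim2 was under the floor. The LLC sh Spp1 level of Casp1 was under the floor as well, so its LLC ratio of -1.27 rests in part on background. Pycard had -0.60, -0.65 and -0.21, Casp4 -1.21, 0.14 and -1.01, and the pore-forming Gsdmd -0.20, -0.21 and -1.07. Of 7 tested genes of the inflammasome list 4 were lower in every line, against 15.5% of all tested genes. Nlrp3 was higher in every line, at 0.12, 0.42 and 0.34, against 16.8% of all tested genes. Among 10 tested macrophage and leukocyte markers in AE17, Lyz2 was lower with sh Spp1, at 5.12 against 7.50 with sh Ctrl, while Cd68 and Cd14 were higher, at 8.71 and 7.43 with sh Spp1 and 7.31 and 6.38 with sh Ctrl, and the others were within 1 log2 unit. Their part in the Aim2 difference was not tested.

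Relatives of the members in the same chromosomal clusters were then read. Among the other PYHIN genes 3 were tested, and Ifi207, Ifi209 and Mndal each had a ratio above 1 in AE17 and below -1 in MC38, with 1.56, 1.26 and 3.33 in AE17 and -2.81, -1.77 and -1.79 in MC38. The LLC ratio of Mndal, -1.70, is between levels of 2.66 with sh Spp1 and 4.35 with sh Ctrl, both under the floor. Ifi202b, Ifi208 and Ifi214 were under the floor on all 6 arrays, and Ifi213 was above it on the MC38 sh Ctrl array only, at 5.39, with 2.68 on the MC38 sh Spp1 array. The 3 tested relatives had the signs of Ifi205 in AE17 and MC38, and Aim2 had the opposite ones. Ifi207, Ifi209 and Mndal were under the floor on the AE17 sh Ctrl array, at 4.02, 4.39 and 3.93. Ifi207 and Ifi209 were also under it on the MC38 sh Spp1 array, at 4.275 and 4.375. These relatives passed the mean filter mainly through the arrays where they were high. The filter thus favoured these signs, and nothing is read from them.

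In the Trim30 cluster, Trim12a and Trim34a had -2.44 and -2.12 in MC38 and 0.51 and 0.26 in AE17. Trim30c was at 6.33 on the AE17 sh Spp1 array and 3.66 on the AE17 sh Ctrl array, and under the floor on the other 4 arrays. Trim30b and Trim12c were under it on all 6, and Trim6 had 0.07, 0.96 and 0.30. Probe sets shared by Trim12c and Trim5 had ratios from -0.82 to 0.71, and the one shared by Trim34b and Trim34a had -0.18 in AE17, opposite in sign to Trim34a alone, and -2.83 in MC38. Next to Phf11d, Phf11b had -0.36, 0.43 and -1.63 in LLC, AE17 and MC38, Phf11a -0.53, -0.28 and -0.78, and Phf11c 0.02, 0.35 and 0.43. Probe sets for Sp140, which lies between Sp110 and Sp100, all carry several symbols and had MC38 ratios of -0.30 to -0.95 and AE17 ratios of -0.91 to -2.11.

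Other interferon-responsive TRIM genes had ratios nearer 0 in MC38 than Trim12a and Trim34a. Trim25, a ligase that activates RNA sensing, had 0.70 in AE17 and -1.15 in MC38, Trim21, a cytosolic antibody receptor, -0.36 and -1.32, Trim14 0.90 and 0.29, and Pml, the organiser of nuclear bodies, 0.87 and -0.67. Of these 6 tested genes 2 were lower by at least 1 log2 unit in MC38, and 0 of 12 TRIM genes without a known interferon response were. Among those 12, Trim28 and Trim32 had 1.45 and 1.23 in AE17 and Trim37 and Trim2 -1.05 and -0.68. Of 10 components of PML bodies other than Sp100, Daxx had -1.06 in MC38 and Blm and Atrx -1.13 and -0.97 in AE17, while Hipk2 and Usp7 had means of 0.18 ± 0.53 and 0.09 ± 0.28 (SD, n = 3 lines). The MC38 ratio of Sp100 was below that of each of these 10 genes. Sp100 was chosen with its ratios known, so nothing is read from that ranking.

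**Figure D4:**
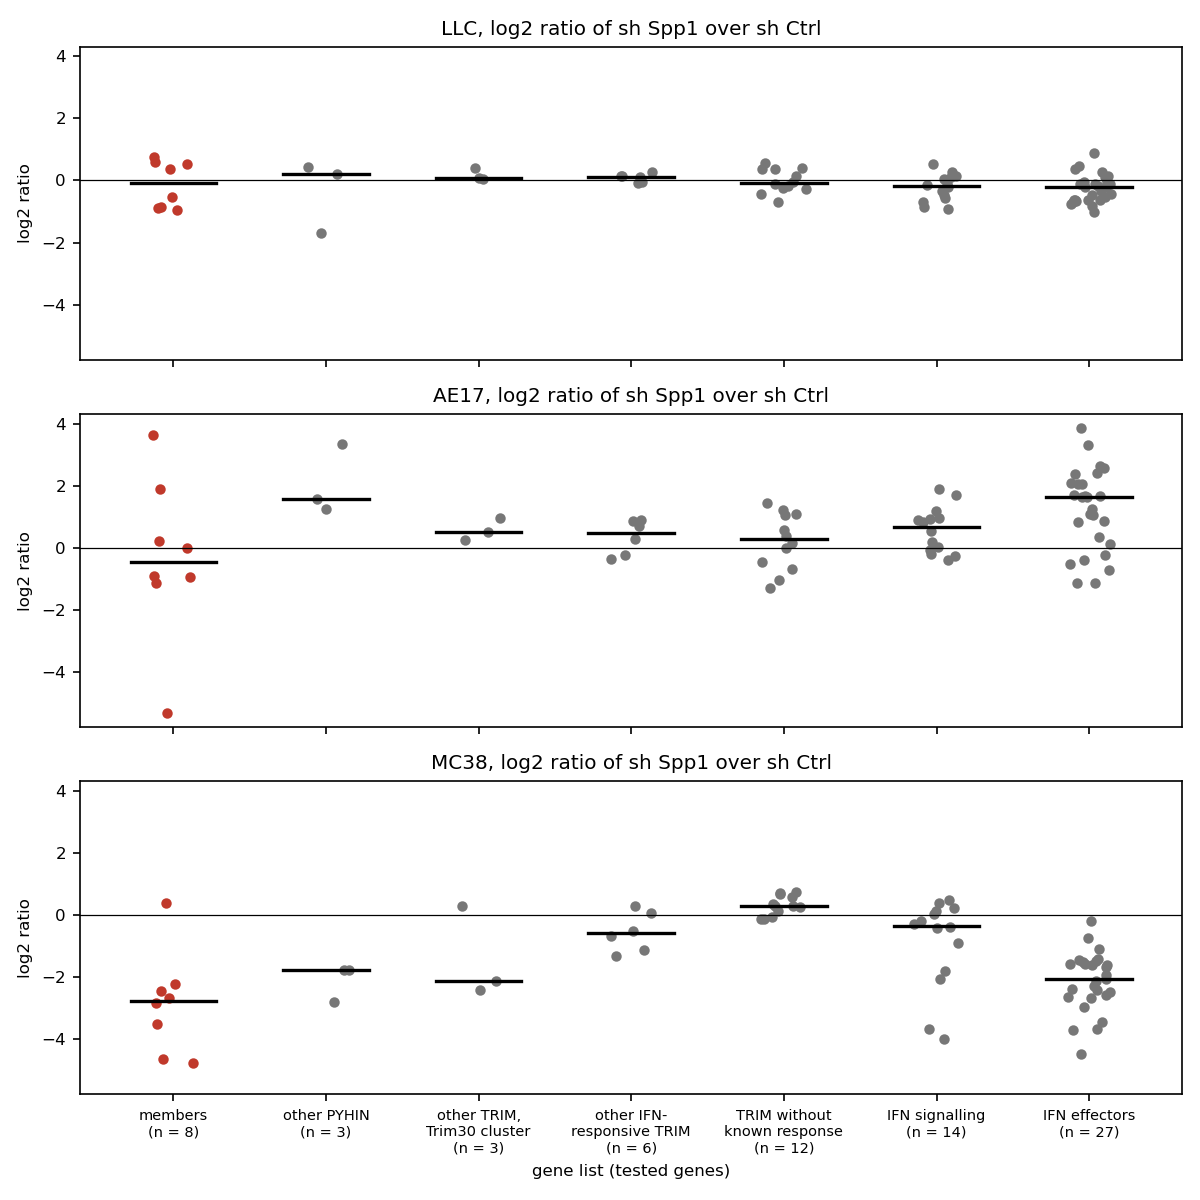
Log2 ratios of sh Spp1 over sh Ctrl of the tested genes in 7 lists (columns; black bars are medians) in LLC, AE17 and MC38, 1 array against 1 array, with the members in red. In MC38 the member median is -2.77 and that of the 27 interferon effector genes -2.06, while in AE17 they are -0.45 and 1.62.

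The wider interferon programme gives the setting. Of 27 tested effector genes, 25 were lower by at least 1 log2 unit in MC38 and 17 higher by that amount in AE17, 16 of them both, and the list medians for LLC, AE17 and MC38 were -0.21, 1.62 and -2.06. Herc6, Ifi27 and Eif2ak2 were the 3 of these 27 that were lower in every line, against 15.5% of all tested genes. Sp100 and the Trim30 genes had these signs too, and nothing is read from the likeness. Herc6, an Isg15 ligase in mouse, had -1.01, -1.13 and -2.06, and Oas2, an antiviral synthetase, had the lowest mean, -1.44 ± 2.75. Irgm1 and Mx1 had the highest, 0.55 ± 2.02 and 0.59 ± 1.40 (SD, n = 3 lines).

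Of the factors that carry the signal, Irf7 had 0.06, 1.18 and -3.68 in LLC, AE17 and MC38, Irf9 0.11, 0.94 and -1.82, and Stat2 -0.10, 0.17 and -2.08. The receptor chains Ifnar1 and Ifnar2 stayed within 1 log2 unit in each line. Usp18 and Socs1, feedback inhibitors of the receptor, had -4.00 and 0.37 in MC38 and 1.89 and 1.70 in AE17. Irf8 had a mean of 0.28 ± 0.75. Interferon beta (Ifnb1) was under the floor on all 6 arrays, at 2.96 to 3.46 with sh Spp1 and 3.29 to 3.52 with sh Ctrl, and 0 of 8 tested interferon ligand genes were past 1 log2 unit in any line; Ifna4 and Ifna1 had the lowest means and Ifnl3 and Ifne the highest. Among the DNA sensors, Cgas had 0.40, 0.99 and 0.32 and its partner Sting1 -0.31, 1.14 and 0.04, while Tbk1 had -1.11 in AE17 and Samhd1 -0.68 in LLC.

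Levels between lines come from the same 6 arrays as the ratios that chose the members, and a low MC38 ratio favours a high sh Ctrl level in MC38, so the fits between lines are not independent of that choice and support nothing about the members. On the sh Ctrl arrays 7 of 8 members were highest in MC38, then AE17, then LLC, an order held by 14.1% of tested genes, while Aim2 was highest in AE17, then MC38, then LLC, as 21.5% of genes were. On the sh Spp1 arrays that order was kept by 3 members, Sp100, Trim30a and Trim30d, against 13.1% of genes, and 4 were highest in AE17, then MC38, then LLC, against 21.8%. Averaged over both arrays of a line in limma's additive fit, the members had a median difference of 3.16 log2 units in MC38 over LLC, against 0.00 for all genes. That median was 1.56 on the sh Spp1 arrays and 4.54 on the sh Ctrl arrays, and Aim2 had 0.13 ± 1.55 (SE). Sp100 had 3.99 ± 0.45 (SE) and Trim30d 3.56 ± 0.49, each with the MC38 level above the LLC level in both shRNA groups.

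No gene passed an adjusted p of 0.05 in these contrasts in limma, members included, which is 0% for MC38 over LLC, MC38 over AE17 and AE17 over LLC. At an unadjusted p under 0.05 there were 1936, 2209 and 2153 of 16797 genes, 4, 2 and 5 of them members. The count of 0 depended on several settings, given with the alternatives, and on the AE17 arrays. With either AE17 array left out, MC38 over LLC gave 3 members at an adjusted p under 0.05 in limma, Sp100, Trim30a and Trim30d, beside 3.41% of all genes called higher. Only the LLC and MC38 arrays then give the spread, and the lone AE17 array is assumed to vary like them. That spread is how far the LLC and MC38 ratios of sh Spp1 over sh Ctrl differ. Sp100, Trim30a and Trim30d were known to be lower in every line when chosen, so their calls are not independent of that choice. Without the AE17 sh Ctrl array, Sp100 and Ifi205 were called higher in AE17 than in LLC, against 5.73% of genes, and Aim2 lower, against 2.86%. In MC38 over AE17 that setting called Aim2 alone among the members, as higher, beside 2.3% of genes. AE17 is then its sh Spp1 array alone, whose Ifi205 and Aim2 levels are those behind the ratios known when the members were chosen, so these calls restate that choice. With the sh Spp1 array of AE17 left out instead, 0 members were called in AE17 over LLC (1.86% of genes higher) or in MC38 over AE17 (2.82%). The differences in MC38 over AE17 were 1.37 for Sp100 and 1.83 for Trim30d and -1.23 for Ifi205.

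For the shRNA itself, limma with the cell line as a block called 0 of 16797 genes at an adjusted p under 0.05, or 0%, and 1017 genes had an unadjusted p under 0.05.

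**Figure D5:**
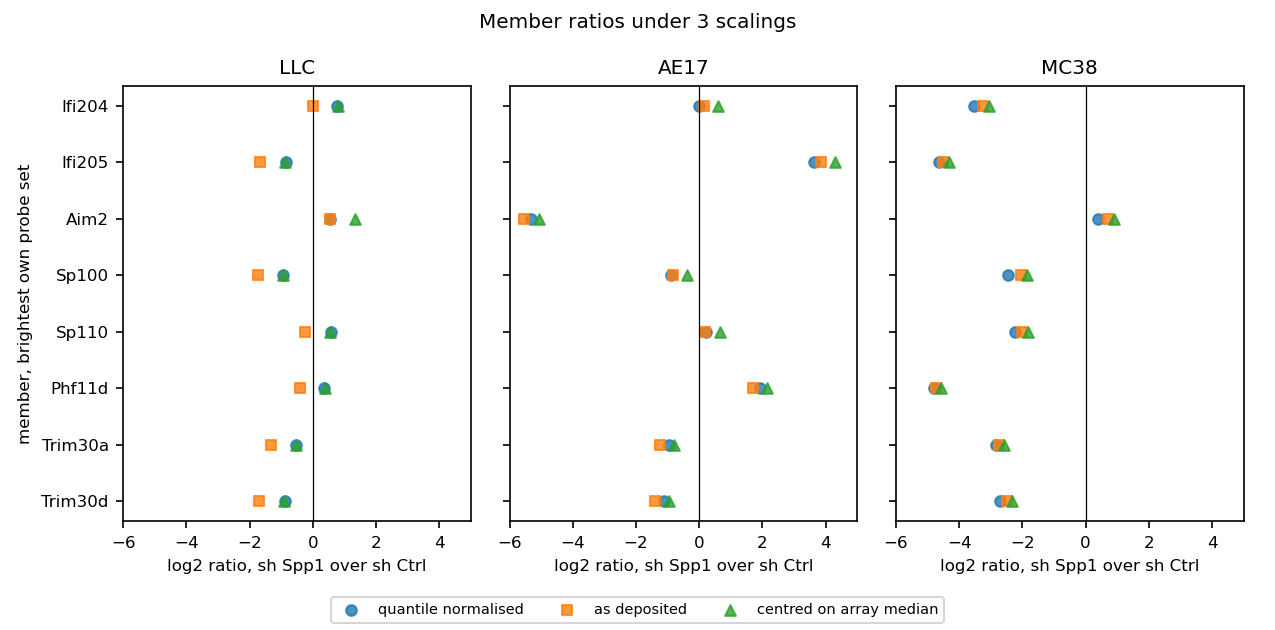
Log2 ratio of sh Spp1 over sh Ctrl of the 8 members in each line under 3 scalings, quantile normalisation (circles), values as deposited (squares) and each array centred on its median (triangles), 1 array against 1 array. In AE17 and MC38 the ratios past 1 log2 unit keep their sign, and in LLC those of Sp110 and Phf11d lie on both sides of 0.

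The genes whose level over the 6 arrays was most like each member's were read as a description; these correlations share 3 lines, and small ranges count as much as large ones. Phf11d was most like Tor3a, Iigp1 and Rtp4 (r = 0.995, 0.988 and 0.979), of which the interferon-inducible GTPase gene Iigp1 had 2.69 in AE17 and -4.32 in MC38. Ifi205 was most like Cd300c, Slfn2 and Cxcl11, with r from 0.988 to 0.995, and Sp110 most like Oas1g, Trim12a and Setd3, with r from 0.984 to 0.992. Trim30a was most like H2-K2, Lrrc8b and Ckap2l, Trim30d most like Ckap2l, Mmp9 and Ptpra, and Sp100 most like Atp10a, Lrrc8b and Ckap2l, with r of 0.983 or more. Ifi204 was most like Fcrls, Ndp and Bank1, whose own MC38 ratios were -0.29, -0.28 and -0.30. Aim2 was most like Creb1, Phf20l1 and Strap, which had -0.91, -1.99 and -0.57 in AE17 and, unlike Aim2, stayed bright there.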

How the data were processed

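The authors deposited linear intensities for 41345 probe sets on 6 arrays; RMA is named per the submitters' processing notes, and GeneSpring GX 12.5 in the design text. Groups came from the titles and lines from the cell line label. The line, named in the labels, pairs the arrays, and further cultures per line were not analysed here. In both fits the spread behind p-values and SEs is thus only how far the sh Spp1 over sh Ctrl ratio differs between lines. It does not measure the scatter of cultures. Because array medians differed, log2 intensities were brought to common quantiles in limma 3.58.1 (R 4.3.3). A single gene symbol was annotated to 23521 probe sets, more than 1 to 1814, and 16010 were unnamed; Entrez IDs matched 23328 to GRCm38.p6 with 0 changed symbols. The shRNA effect was fitted with the line as a block, and levels between lines with the shRNA as a term, by lmFit and eBayes with Benjamini-Hochberg adjustment over 16797 genes. The fit was tested on simulated data. The members and lists were chosen with earlier results of these data known. Named genes are all members and their relatives, the 2 highest and 2 lowest means of each other list with fixed signalling genes, and the 3 genes most alike to each member, clone names passed over. Daxx, Gsdmd, Ifi27, Eif2ak2, Zbp1, the receptor chains and the tissue markers that fall outside this rule were named after their values were seen. Promoters were searched in Python 3.11.15, aligned with Biopython 1.88 and plotted with matplotlib 3.10.9. Precision is limited by the number of arrays.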

Additional observations from a re-analysis of the deposited data

Results flagged for a closer look

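Members with log2 ratios of sh Spp1 over sh Ctrl past 1 log2 unit in opposite directions in AE17 and MC38 were singled out; with 1 array against 1 array in each line, the difference was not tested. Ifi205 had 3.64 in AE17 and -4.64 in MC38. Phf11d had 1.91 in AE17 and -4.79 in MC38. The probe set shared by Ifi203, LOC100862473 and Ifi203-ps had 1.34 in AE17 and -2.93 in MC38.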

How the results depend on the processing

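The 3 members lower in all 3 lines were 3 under both other scalings, when probe sets of a gene were averaged, without a brightness filter and a minimum of 0.2 log2 units per line, and 3 to 4 with a line left out. No member ratio past 1 log2 unit changed sign under the scalings or with probe sets averaged. In LLC, 0 members were past 1 log2 unit, but 4 were lower in the deposited values and 1 higher with arrays centred; at 1.5-fold 3 were lower and 2 higher. In AE17 the 2 lower members became 1 with arrays centred, 4 at 1.5-fold and 1 at 4-fold, and the 2 higher became 1 at 4-fold. The deposited values moved the median ratio of all genes to -0.46, -0.23 and 0.08 (LLC, AE17, MC38), and centring to 0.33, 0.22 and 0.26, so changes in LLC are the least certain; the LLC split of higher and lower genes, 299 and 308, became 134 and 3216 as deposited and 2707 and 156 with centring. In AE17 the split of 1751 and 1540 became 1683 and 2168, and 3362 and 854. In MC38 the split of 150 and 290 became 380 and 304, and 857 and 206.

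The shRNA effect called 0 genes in limma with and without the replicate block, under each alternative run and with each line left out (0 to 0). For MC38 over LLC, in place of 0 genes, 225 were called in the deposited values, 44 with no brightness filter, 42 with the 50th percentile floor, 42 with a variance trend, 89 with no shRNA term, 112 at an adjusted p under 0.1, and 0 to 1032 with an array left out; 4 members were called in the deposited values, 1 at 0.1, and 0 to 3 with an array left out. For MC38 over AE17 the counts were 287 as deposited, 27 with the higher floor, 100 with no shRNA term, 125 at 0.1 and 0 to 1157 with an array left out, with 1 member as deposited and 0 to 1. For AE17 over LLC they were 103, 1 with the trend, 9 with no shRNA term and 0 to 1443, with 0 to 3 members. The members' median MC38 over LLC difference of 3.16 was 1.56 on the sh Spp1 arrays and 4.54 on the sh Ctrl arrays. The causes were not tested. Depth here means signal over background, which limits Trim30a, Trim30d, Phf11d, Ifi205 and, in part, Sp100 in LLC.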

Other observations

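Zbp1, a sensor of Z-form nucleic acid that was read with the DNA sensors, had the opposition of Ifi205 and Phf11d: it was at 8.18 with sh Spp1 and 5.49 with sh Ctrl in AE17, and at 6.51 and 9.89 in MC38, log2 ratios of 2.69 and -3.38. Among 8 endothelial markers, Eng was at 5.78 with sh Spp1 and 9.46 with sh Ctrl in AE17, and the keratin Krt8 at 6.47 and 11.08. The low Aim2 and Casp1 levels of the AE17 sh Spp1 array thus stood beside differences in genes outside the interferon programme. Eng and Krt8 had the lowest AE17 ratios of their lists. Of 6 tested endothelial and 9 tested intestinal markers, 2 each were lower in AE17 by at least 1 log2 unit, and 0 higher. Of 9 tested fibroblast markers 3 were higher there by at least 1 log2 unit, Col1a1 the most at 11.96 with sh Spp1 and 6.87 with sh Ctrl, and Pdgfra was lower, at 8.97 with sh Spp1 and 10.11 with sh Ctrl.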
